A study of Homo sapiens with 6 samples.

Results

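Transcript levels of 9 genes that crosslink actin filaments or set their turnover were followed in 92.1 cells, a human ocular melanoma line, after knockdown of ALKBH3. The genes are the filamins FLNA and FLNC, the alpha-actinins ACTN1 and ACTN4, the LIM kinases LIMK1 and LIMK2, the cofilin phosphatase SSH1 and the cofilins CFL1 and CFL2. They are 9 of 11387 genes in the deposited tables, with 43 of 28796 annotated transcripts. They were chosen by function among the listed genes, with the lower levels of FLNA and LIMK1 in the knockdown already known. Their gene levels are therefore given as a description, and no test of them stands as support. All 9 passed the filter of a mean of at least 1 FPKM, the lowest having a mean of 6.19 FPKM. None was near the level at which a transcript drops out of the tables, which is a group mean of 0.5 FPKM.

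The study compared 3 libraries labelled shALKBH3 (genotype ALKBH3 knockdown) with 3 libraries labelled NC (genotype WT). Total RNA was used in both groups, and all cells were grown in the same serum-containing medium. No label gives a hairpin sequence, the number of knockdown clones or a control hairpin in NC. Nor does any say that the replicates were separate cultures, so p-values cover only the spread between these libraries. ALKBH3, an oxygenase that takes methyl groups off alkylated nucleic acids, was at 3.29, 3.60 and 4.24 FPKM in shALKBH3 libraries and at 10.5, 10.6 and 9.19 FPKM in NC libraries. FPKM, fragments scaled to transcript length and library size, allow levels of different genes to be set side by side. Their sums over the matched transcripts ranged from 326408 to 333506 in shALKBH3 and from 340522 to 360889 in NC, and sequencing depth is unknown. Of 8 melanocyte markers 1 was listed, MITF, at 10.3 to 14.0 FPKM in shALKBH3 and 3.29 to 9.53 FPKM in NC. PMEL, MLANA, TYR, DCT, TYRP1, SOX10 and S100B were not among the listed genes. If a group mean of 0.5 FPKM was the only condition for listing, each of their transcripts lay below it in both groups. The labelled cell type was not checked further. Of 5 immune markers 1 was listed, CD68, at 33.8 to 37.4 FPKM in shALKBH3 and 14.7 to 18.9 FPKM in NC. Of 7 fibroblast markers 3 were listed, with sums of 23.8 to 29.1 FPKM in shALKBH3 and 23.2 to 34.4 FPKM in NC. None of 4 endothelial markers and 2 of 4 epithelial markers were listed. The epithelial markers KRT8 and KRT18 together held 458 to 578 FPKM in shALKBH3 and 429 to 514 FPKM in NC. The part of other cell types in the results was not tested. In RNA from whole cultures, fewer cells that express a gene and less of its RNA per cell cannot be told apart.

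Filamins and alpha-actinins join actin filaments into networks and bundles and tie them to membrane receptors and adhesion sites. LIM kinases phosphorylate cofilin and so stop it from severing and disassembling filaments, and slingshot phosphatases take that phosphate off again. This balance is known for its part in cell shape and movement, melanoma cells included.

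Among the 9 genes the largest difference in the share of the leading transcript, that with the highest mean over the 6 libraries, lay in FLNA. Its 4 long transcripts differ in a coding cassette exon of 24 nucleotides and in where they start. The cassette exon is shown because it is 1 of the features that set them apart, and capitals mark it between 30 nucleotides of the exon on each side. Both sequences are from GENCODE release 29, chromosome X, on the strand of the gene, 5′ to 3′.
FLNA-202 and FLNA-203, exon included: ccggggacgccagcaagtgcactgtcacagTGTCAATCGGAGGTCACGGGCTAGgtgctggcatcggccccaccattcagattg
FLNA-201 and FLNA-206, exon skipped: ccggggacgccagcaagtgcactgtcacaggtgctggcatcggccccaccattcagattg
FLNA-202 and FLNA-206 begin with an upstream first exon of 133 nucleotides, while FLNA-201 and FLNA-203 begin inside the next exon. On the genome, intron included, the start of FLNA-203 lies 3416 nucleotides downstream of that of FLNA-202.

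FLNA encodes filamin A, the most widely expressed filamin. Its summed level was 37.7, 53.4 and 34.0 FPKM in shALKBH3 replicates 1, 2 and 3, and 99.4, 119 and 82.1 FPKM in NC replicates 1, 2 and 3. Every shALKBH3 library lay below every NC library. The means were 41.7 ± 10.3 FPKM in shALKBH3 and 100.1 ± 18.3 FPKM in NC (SD, 3 libraries each). On the log2(FPKM + 1) scale used for all gene differences here, the difference was -1.25 (SE 0.206). FLNC, a filamin best known from muscle, was at 34.3, 26.3 and 30.6 FPKM in shALKBH3 and at 24.5, 29.3 and 25.2 FPKM in NC. The FLNC groups overlapped, with a log2 difference of 0.20 (SE 0.125). FLNA stood at 1.10, 2.03 and 1.11 times the FLNC level in shALKBH3 libraries, and at 4.06, 4.06 and 3.26 times in NC libraries. The sum of both filamins was 64.6 to 79.7 FPKM in shALKBH3 and 107 to 148 FPKM in NC.

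The alpha-actinins bundle filaments in stress fibres and at adhesion sites. ACTN1 was at 102, 117 and 128 FPKM in shALKBH3 and at 106, 108 and 85.9 FPKM in NC, with a log2 difference of 0.21 (SE 0.127). ACTN4 was at 173, 153 and 166 FPKM in shALKBH3 and at 157, 171 and 158 FPKM in NC, with a log2 difference of 0.02 (SE 0.077). The groups overlapped for both genes. Their sum was 270 to 294 FPKM in shALKBH3 and 243 to 280 FPKM in NC.

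LIMK1 encodes a kinase that phosphorylates cofilin. It was at 11.3, 7.73 and 13.6 FPKM in shALKBH3 replicates 1, 2 and 3, and at 26.04, 26.4 and 27.5 FPKM in NC replicates 1, 2 and 3. The groups did not overlap, and the NC libraries lay close together. The means were 10.9 ± 2.98 FPKM in shALKBH3 and 26.6 ± 0.770 FPKM in NC (SD, 3 libraries each), with a log2 difference of -1.25 (SE 0.191). LIMK2, its relative with the same substrate, was at 6.68, 6.45 and 7.20 FPKM in shALKBH3 and at 5.79, 4.91 and 6.15 FPKM in NC. Here every shALKBH3 library lay above every NC library, with a log2 difference of 0.24 (SE 0.112). LIMK1 stood at 1.70, 1.20 and 1.89 times the LIMK2 level in shALKBH3, and at 4.50, 5.38 and 4.48 times in NC. The sum of both kinases was 14.2 to 20.8 FPKM in shALKBH3 and 31.3 to 33.7 FPKM in NC.

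SSH1, the slingshot phosphatase that reactivates cofilin, was at 8.38, 8.79 and 7.42 FPKM in shALKBH3 and at 7.28, 8.29 and 2.96 FPKM in NC. The groups overlapped, and NC replicate 3 stood lowest of the 6 libraries. Its log2 difference of 0.45 (SE 0.324) was the largest positive one among the 9 genes, and 0.07 without NC replicate 3. LIMK1 stood at 1.35, 0.88 and 1.84 times the SSH1 level in shALKBH3, and at 3.58, 3.18 and 9.28 times in NC.

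CFL1, the cofilin of most non-muscle cells, had the highest level of the 9 genes. It was at 471, 428 and 347 FPKM in shALKBH3 and at 423, 397 and 479 FPKM in NC, with a log2 difference of -0.07 (SE 0.133). CFL1 has processed pseudogenes, and how reads shared with them were counted is not given in the sources used here. CFL2, the cofilin best known from muscle, was at 25.6, 30.1 and 27.2 FPKM in shALKBH3 and at 28.95, 27.6 and 30.2 FPKM in NC, with a log2 difference of -0.07 (SE 0.090). The groups overlapped for both cofilins, and CFL1 was at 12.8 to 18.4 times the CFL2 level in shALKBH3 and 14.4 to 15.8 times in NC.

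**Figure D1:**
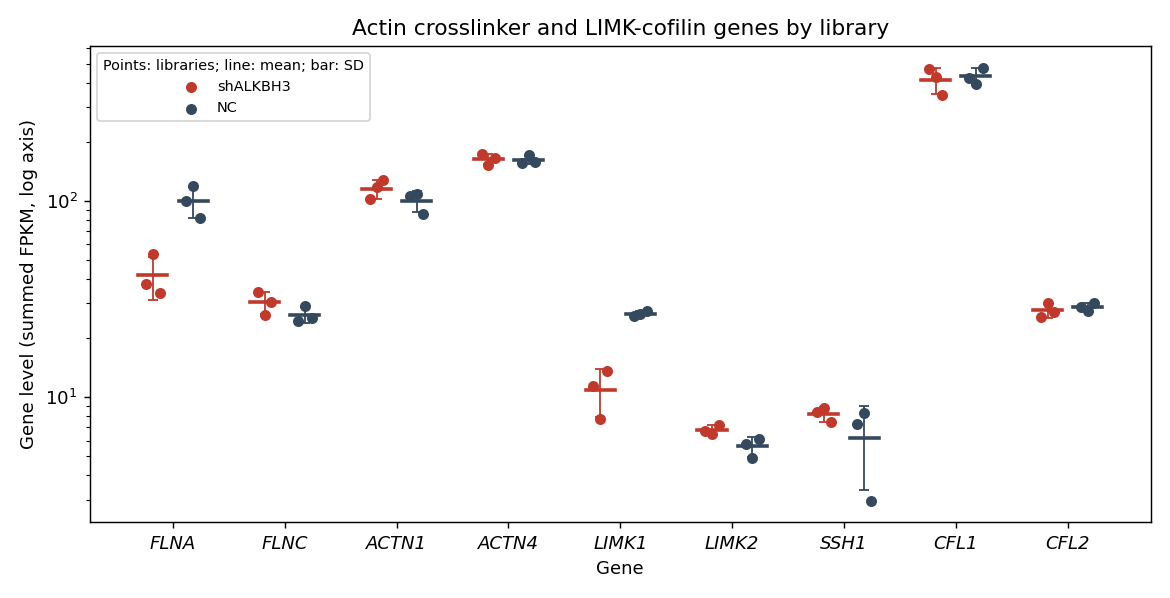
Summed FPKM of each gene on a log axis in 3 shALKBH3 libraries (red, left of each pair) and 3 NC libraries (dark, right), with the mean as a line and the SD as a bar. FLNA and LIMK1 stand apart downward, at means of 41.7 and 10.9 FPKM in shALKBH3 against 100.1 and 26.6 FPKM in NC.

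In order of mean level, the shALKBH3 libraries ran CFL1, ACTN4, ACTN1, FLNA, FLNC, CFL2, LIMK1, SSH1 and LIMK2. In that group FLNA overlapped with FLNC, FLNC with CFL2, and LIMK1 with SSH1. The NC libraries ran CFL1, ACTN4, ACTN1, FLNA, CFL2, LIMK1, FLNC, SSH1 and LIMK2, and there ACTN1 overlapped with FLNA, LIMK1 with FLNC, and SSH1 with LIMK2. All other neighbours in both orders were separate.

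Of the 9 genes 2, FLNA and LIMK1, were past the threshold on the low side in the fit over all genes (limma, adjusted p under 0.05), where 0.477% of 10475 genes were past it in that direction. In either direction 1.76% were past it. The groups did not overlap in 3 of the 9 (FLNA, LIMK1 and LIMK2), against 24.9% of all genes. For FLNA and LIMK1 the shALKBH3 libraries lay below, as in 12% of all genes, and for LIMK2 above, as in 12.9%. The median log2 difference of the 9 genes was 0.02, beside -0.01 over all genes tested. Because the members were chosen with this contrast in view, nothing is read from these counts. The FLNA call was lost when any 1 library was left out (adjusted p from 0.0538 without shALKBH3 replicate 2 to 0.157 without NC replicate 1). The LIMK1 call was kept without shALKBH3 replicate 2 (0.0398). It was lost without shALKBH3 replicate 1 or 3 (0.104 or 0.0545), and likewise without NC replicate 1, 2 or 3 (0.137, 0.089 or 0.133).

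Within FLNA the listed transcripts did not move together. FLNA-203 was at 8.74, 9.31 and 9.97 FPKM in shALKBH3 replicates 1, 2 and 3, and at 83.9, 105 and 67.8 FPKM in NC replicates 1, 2 and 3, means of 9.34 ± 0.616 and 85.5 ± 18.5 FPKM (SD, 3 libraries each). The other 3 long transcripts, FLNA-201, FLNA-202 and FLNA-206, summed to 22.3, 26.3 and 20.8 FPKM in shALKBH3 and to 4.57, 3.63 and 10.7 FPKM in NC. The groups did not overlap in either quantity, and the directions were opposite. FLNA-202 was at 5.24, 6.17 and 8.84 FPKM in shALKBH3 and at 1.51, 1.68 and 2.73 FPKM in NC. FLNA-206 was at 8.52, 8.56 and 9.60 FPKM in shALKBH3 and at 1.56, 1.96 and 3.96 FPKM in NC. FLNA-201 was at 8.53, 11.6 and 2.33 FPKM in shALKBH3 and at 1.501, 0 and 4.03 FPKM in NC, and these groups overlapped. The short transcript FLNA-208 was at 6.24, 17.2 and 2.54 FPKM in shALKBH3 and at 10.4, 9.64 and 2.96 FPKM in NC, so that its share of the gene sum swung between libraries of both groups. FLNA-207, another short one, stayed under 1 FPKM in every library.

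Grouped by the cassette exon, FLNA transcripts that contain it held 45.1%, 43.4% and 61.2% of the 4 long transcripts in shALKBH3, and 96.5%, 98.2% and 89.8% in NC. Those that skip it summed to 16.4 ± 4.15 FPKM in shALKBH3 and 4.34 ± 3.22 FPKM in NC (SD, 3 libraries each). Grouped by start, transcripts with the upstream first exon held 44.3%, 41.4% and 60.0% in shALKBH3, and 3.5%, 3.4% and 8.5% in NC. Their sum was 15.6 ± 2.47 FPKM in shALKBH3 and 4.46 ± 1.95 FPKM in NC, while those starting inside the next exon summed to 16.8 ± 4.32 FPKM in shALKBH3 and 87.4 ± 16.5 FPKM in NC. An exact two-sided permutation test over libraries gave p = 0.10 for each of these 2 groupings. That is the smallest p that 3 against 3 libraries allow, and both groupings were formed after the values had been seen. FLNA-203 belongs both to the group with the cassette exon and to the group starting inside the next exon. Alone it held 28.2%, 26.1% and 32.4% of the 4 long transcripts in shALKBH3, and 94.8%, 96.6% and 86.4% in NC. The 2 groupings are therefore not independent, and a difference in exon or start apart from FLNA-203 was not tested.

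The division among FLNA transcripts rests on little sequence. Of 8211 stretches of 31 nucleotides in FLNA-203, 0 are absent from every other listed FLNA transcript, and the same holds for FLNA-201 and FLNA-206. Transcripts with the upstream first exon share 211 such stretches that no other listed FLNA transcript has, those with the cassette exon 52 and those without it 28. Those starting inside the next exon share 0. Reads that match FLNA-203 therefore also match at least 1 other listed transcript, and its level follows from how the authors' tool shared them out.

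LIMK1 has 2 listed transcripts that share 15 exons and differ in the first exon, of 106 nucleotides in LIMK1-201 and 247 in LIMK1-202. LIMK1-201 was at 2.23, 7.73 and 5.05 FPKM in shALKBH3 and at 23.6, 18.8 and 25.2 FPKM in NC, with no overlap of the groups. LIMK1-202 was at 9.11, 0 and 8.58 FPKM in shALKBH3 and at 2.41, 7.59 and 2.35 FPKM in NC, and was thus spread as widely within the groups as between them. The share of LIMK1-201 was 19.6%, 100% and 37.0% in shALKBH3, and 90.8%, 71.2% and 91.5% in NC. These transcripts differ in more sequence than those of FLNA, with 104 stretches of 31 nucleotides found only in LIMK1-201 and 245 only in LIMK1-202.

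**Figure D2:**
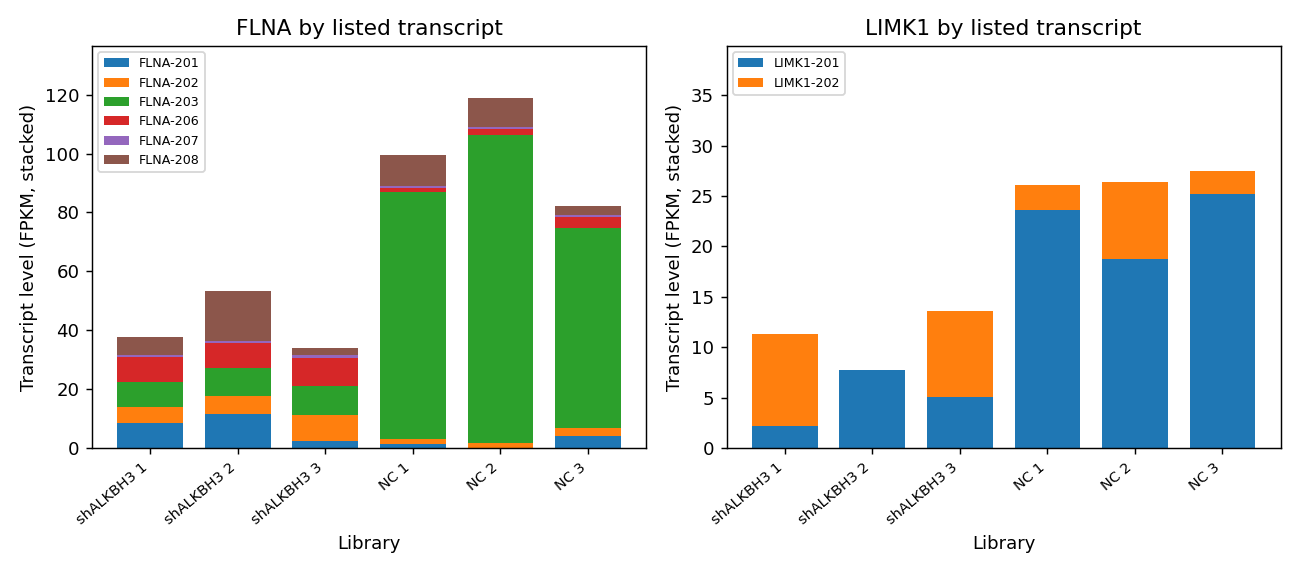
FPKM of each listed transcript of FLNA (left panel) and LIMK1 (right panel), stacked for the 3 shALKBH3 and the 3 NC libraries. FLNA-203 fills 17.4% to 29.3% of the FLNA bar in shALKBH3 and 82.6% to 88.2% in NC, while LIMK1-202 is at 0 in shALKBH3 replicate 2 and at 8.58 and 9.11 FPKM in the other shALKBH3 libraries.

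The share of the gene sum held by the transcript with the highest mean over the 6 libraries was compared for all 9 genes. In shALKBH3 the mean of FLNA-203 was 9.34 FPKM, beside 8.89 for FLNA-206. That of LIMK1-201 was 5.00 FPKM there, below 5.90 for LIMK1-202. Both were chosen mainly through NC, so the choice itself favours a lower share in shALKBH3. FLNA-203 held 23.3 ± 5.9% of FLNA in shALKBH3 and 85.1 ± 2.9% in NC (SD, 3 libraries each), a difference of -61.8 percentage points. CFL2-202 held 84.8 ± 1.3% of CFL2 in shALKBH3 and 87.5 ± 1.6% in NC, a difference of -2.7 percentage points. These were the 2 genes whose groups did not overlap, each with an exact two-sided permutation p of 0.10 and an adjusted p of 0.45 over the 9 genes. How many of all genes separate in this way was not computed, so nothing is read from this count. The exact p of the other 7 lay between 0.4 and 0.8. ACTN4-201 (92.0 ± 0.8% in shALKBH3, 92.2 ± 1.0% in NC), SSH1-202 (93.3 ± 2.4% in shALKBH3, 93.7 ± 4.4% in NC) and the leading CFL1 transcript (53.1 ± 1.1% in shALKBH3, 53.8 ± 1.3% in NC) varied little between libraries. ACTN1-201 did not, with 95.2%, 30.3% and 21.8% of ACTN1 in shALKBH3 and 38.2%, 93.3% and 93.3% in NC. FLNC-202 was listed at 0 in NC replicate 1 and held 52.5% to 74.5% of FLNC in the other 5 libraries. The ACTN1 and FLNC sums varied far less than these shares, by 102 to 128 and 26.3 to 34.3 FPKM in shALKBH3 and by 85.9 to 108 and 24.5 to 29.3 FPKM in NC.

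**Figure D3:**
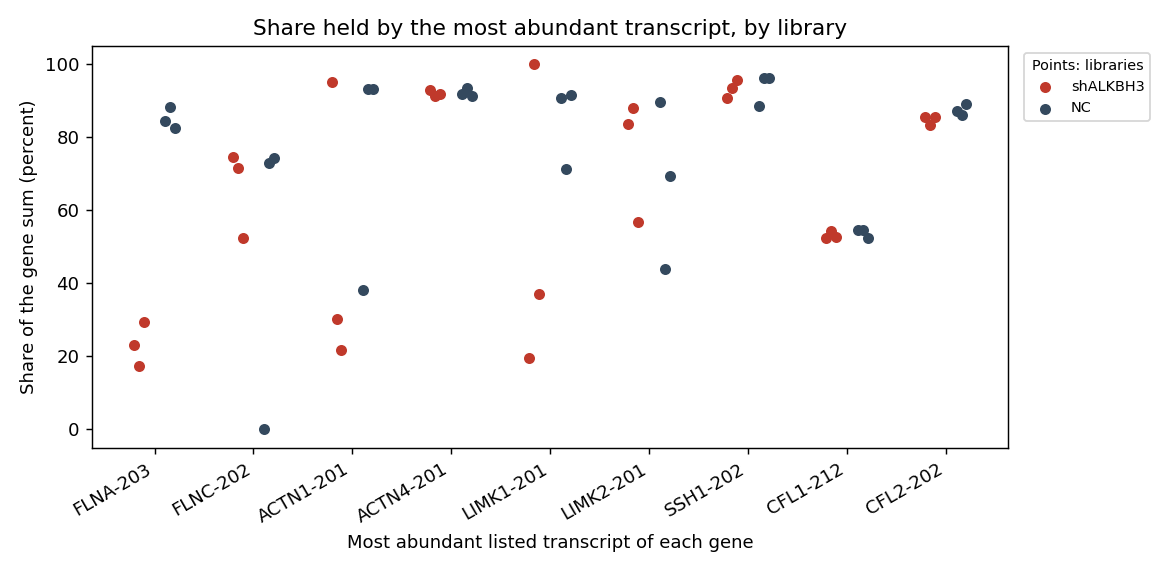
Share of the summed gene FPKM, in percent, held by the most abundant listed transcript of each gene, with 1 point per library (shALKBH3 red, left; NC dark, right). FLNA-203 lies at 17.4% to 29.3% in shALKBH3 and 82.6% to 88.2% in NC, while ACTN1-201, FLNC-202, LIMK1-201 and LIMK2-201 spread widely within a group.

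The ratio of each transcript to the rest of its gene was also fitted, for 14967 transcripts. This fit was chosen after the values of the FLNA transcripts had been seen. FLNA-203 also carries the lower FLNA level known when the genes were chosen, so nothing is read from its rank or p. FLNA-203 ranked 13th by p, with a log2 ratio difference of -4.10 (SE 0.401) and a limma adjusted p of 0.0665, and so missed the threshold that 0.0802% of the ratios passed. It was 0.0433 with a pseudocount of 0.1 FPKM, and 0.0892 to 0.136 when single libraries were left out. None of the 35 member transcripts in the fit passed in limma. Of them 5 had an unadjusted p under 0.05, beside 5.15% of all, and these were FLNA-201, FLNA-202, FLNA-203, FLNA-206 and ACTN4-203. The FLNA ratios are not independent, since each sets a transcript against the rest of the same gene. Nothing is therefore read from this count. FLNA-206 had a ratio difference of 3.13 (adjusted p = 0.193) and FLNA-202 of 2.87 (0.248). ACTN4-203 was listed at 0 in all 3 NC libraries and at 2.42, 2.71 and 3.18 FPKM in shALKBH3, which is 1.40% to 1.91% of ACTN4 there. It entered the fit only through those libraries, and with NC at 0 the pseudocount sets its ratio, so its p is not used. It has 30 stretches of 31 nucleotides of its own.

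Tested singly, 2 of 36 member transcripts were past the limma threshold, FLNA-203 and ACTN4-203, beside 0.472% of 19698 transcripts in all. Nothing is read from these calls, since FLNA-203 carries the lower FLNA level known when the genes were chosen, and ACTN4-203 passed the filter on low values only through the shALKBH3 libraries. The groups did not overlap for 11 of the 36, beside 18% of all. Of the 43 listed transcripts 8 were at 0 in at least 1 library.

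The genes whose levels ran most like those of FLNA over the 6 libraries were SCG5, ANKRD28 and CTU2. Their root mean square differences from FLNA, after each gene was centred on its own mean log2 level, were 0.188, 0.213 and 0.222. For LIMK1 they were CHAC1 (0.124), ZNF302 (0.197) and the immediate early gene EGR1 (0.207). They are the 3 nearest of 10474 genes compared, and nothing on function or control follows from likeness over 6 libraries.

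Around these members, 5 lists of actin genes held 103 tested genes, of which 0 rose and 3 fell at a limma adjusted p under 0.05, where 1.28% of all genes rose and 0.477% fell. The median log2 difference of the 103 was -0.01, beside -0.01 over all genes tested. The unadjusted p was under 0.05 for 24 of them, beside 17.1% of all genes, and the groups did not overlap for 32, beside 24.9% of all.

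Among cofilin partners and filament turnover genes 1 of 26 fell and 0 rose, and the median was -0.08. The unadjusted p was under 0.05 for 7, beside 17.1% of all genes. ARPC1A, a subunit of the branching Arp2/3 complex, was at 131, 133 and 127 FPKM in shALKBH3 and 168, 169 and 182 FPKM in NC, and changed by -0.41 on the log2 scale (SE 0.065, adjusted p = 0.0456). Its call was lost without any 1 library (adjusted p from 0.0814 without NC replicate 2 to 0.191 without shALKBH3 replicate 3). Its alternative subunit ARPC1B was at 31.2, 23.3 and 29.9 FPKM in shALKBH3 and 12.1, 12.6 and 19.0 FPKM in NC. The ARPC1B log2 difference of 0.92 did not pass (limma adjusted p = 0.0956). It passed under 1 of 17 alternatives, a correction for transcript length and GC content (0.0217), and its adjusted p reached 0.288 under the others. TWF1, which encodes a monomer-binding relative of cofilin, was at 3.66, 7.12 and 6.19 FPKM in shALKBH3 and 15.1, 54.0 and 18.9 FPKM in NC (log2 difference -2.01, adjusted p = 0.126).

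Of 23 other crosslinkers and bundlers 0 passed, and 7 had an unadjusted p under 0.05, beside 17.1% of all genes. The median was 0.23, beside -0.01 over all genes tested. LIMA1, which encodes a filament-stabilising LIM protein, was at 44.9, 47.3 and 45.2 FPKM in shALKBH3 and 35.3, 35.3 and 35.6 FPKM in NC (log2 difference 0.36, adjusted p = 0.0649). The dystrophin relative UTRN had a log2 difference of 0.40 (0.208) and the bundling protein gene PLS3 0.24 (0.211). With the length and GC correction LIMA1, UTRN and PLS3 had smaller log2 differences, of 0.277, 0.219 and 0.152.

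Of 23 tested binding partners of filamin and alpha-actinin 0 passed. The unadjusted p was under 0.05 for 5, beside 17.1% of all genes, and the median of the 23 was -0.06. ITGB1, the integrin beta chain whose tail binds filamin, was at 591, 771 and 749 FPKM in shALKBH3 and 480, 441 and 426 FPKM in NC. Its log2 difference of 0.64 missed the threshold (limma adjusted p = 0.0676). It passed under 3 of 17 alternatives: without shALKBH3 replicate 1 (0.0343), with quantile normalization (0.037) and with the length and GC correction (0.0463). Under the others it missed, with an adjusted p of up to 0.232. RFLNB, which encodes refilin B, had a log2 difference of -0.39 (0.116), and the chaperone gene CALR 0.31 (0.193, or 0.044 with the length and GC correction).

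Of 16 tested actin, myosin II and tropomyosin genes 0 passed in limma and 0 had an unadjusted p under 0.05, with a median of 0.11. TMOD3, which caps pointed ends, had a log2 difference of 0.19 (adjusted p = 0.296), CALD1 0.22 (0.315) and TPM3 -0.17 (0.325). ACTB, named after its values were seen, averaged 328 ± 23.3 FPKM in shALKBH3 and 189.5 ± 185.5 FPKM in NC, so that its log2 difference of 1.22 (adjusted p = 0.370) came with an NC spread as large as the NC mean.

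Serum response factor, SRF, drives many actin genes together with cofactors of the ternary complex and MRTF families. Of 27 tested genes in the list of SRF, its cofactors and its targets 2 fell and 0 rose, both already known when the list was drawn up, and the median was -0.12. The unadjusted p was under 0.05 for 6, beside 17.1% of all genes. ELK3, a ternary complex factor, was at 18.2, 18.1 and 16.2 FPKM in shALKBH3 and 55.2, 62.2 and 56.2 FPKM in NC (log2 change -1.67, SE 0.088, adjusted p = 0.00166). EGR1, an immediate early target, was at 8.85, 7.32 and 7.60 FPKM in shALKBH3 and 18.7, 19.3 and 19.7 FPKM in NC (log2 change -1.18, SE 0.096, adjusted p = 0.00441). Both calls held without each single library (adjusted p at most 0.0227 for ELK3 and 0.0404 for EGR1). CTGF had a log2 difference of -0.28 (adjusted p = 0.107).

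**Figure D4:**
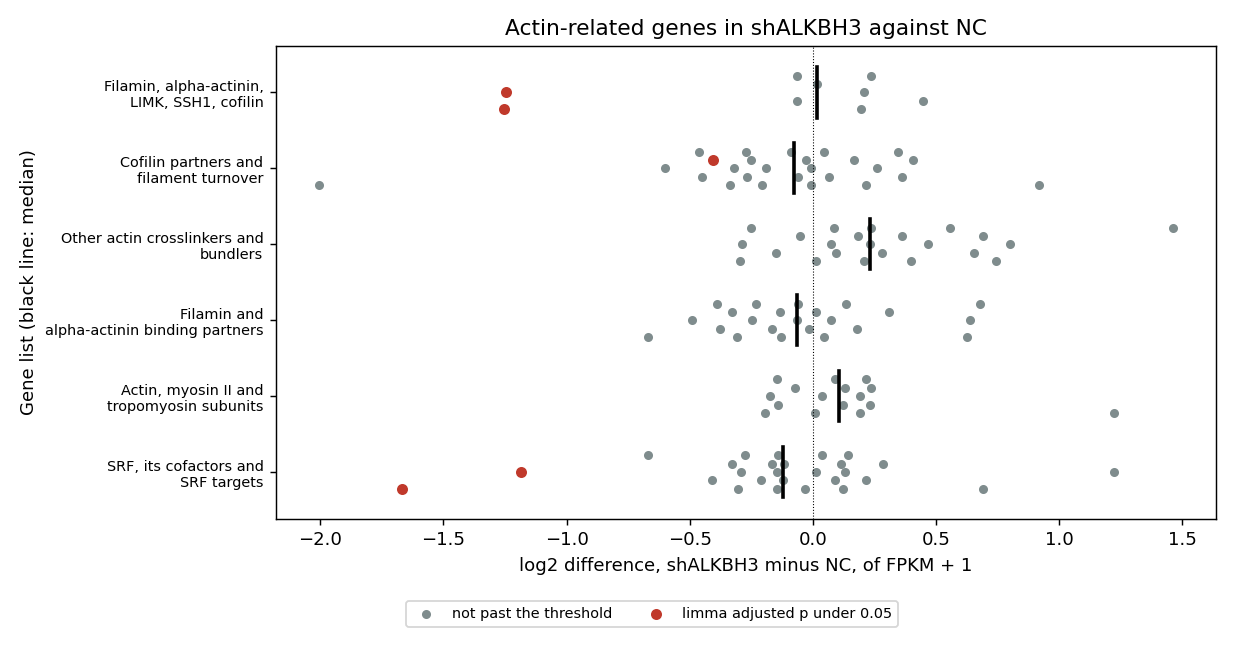
log2 differences of FPKM + 1, shALKBH3 minus NC, for the 9 genes (top) and the tested genes of 5 actin lists, 1 point per gene with the list median as a black line. FLNA and LIMK1 lie at -1.25, and the 3 list genes past the threshold are ARPC1A (-0.41), EGR1 (-1.18) and ELK3 (-1.67).

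The FLNA promoter is shown because FLNA is known as an SRF target and because FLNA-202 and FLNA-206 begin at it or near it. Those transcripts had higher levels in shALKBH3, and so, on average, did FLNA-201, which starts downstream, and none of the 3 passed the limma threshold singly. The window runs from 250 bases before the RefSeq start to 50 after it, on GRCh38.p14, minus strand, chrX:154374585-154374884, and that start lies 4 bases from the start of FLNA-202 in GENCODE. Capitals mark a match to the CArG box, the motif bound by SRF.
FLNA: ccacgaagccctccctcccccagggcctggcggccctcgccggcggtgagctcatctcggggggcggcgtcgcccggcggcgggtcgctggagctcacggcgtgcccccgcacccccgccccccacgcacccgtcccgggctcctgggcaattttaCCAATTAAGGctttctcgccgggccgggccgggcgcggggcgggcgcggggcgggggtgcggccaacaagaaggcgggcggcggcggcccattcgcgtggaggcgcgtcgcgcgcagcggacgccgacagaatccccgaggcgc
Searched on both strands, 1.29% of 35116 such windows hold a CArG box, and 2 of the 17 windows of the 9 genes do, that of FLNA and 1 of 4 of ACTN1. The GC box GGGCGG, which can overlap itself and neighbouring copies, was in 11 of the 17 windows and in 44.95% of all. The ETS core CCGGAAG was in 2 of the 17, in CFL1 and LIMK2, and in 10.26% of all. A match describes the letters in the window and no binding.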

How the data were processed

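The authors deposited FPKM per transcript, 1 table per library, per the file headers. The submitters' processing notes name hg19, HTSeq 0.6.0 and DESeq2 without a role for each. Which aligner, annotation and estimator made the FPKM is not given in the sources used here. The smallest value above 0 is 1e-06 FPKM, so values are model estimates and no reads were recovered.

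Identifiers were stripped of version and suffix and matched to GENCODE release 29 (GRCh38), which matched 28796 of 28900 transcripts. No coordinates were carried between builds. FPKM were summed per gene and taken as log2(FPKM + 1). Genes averaging 1 FPKM or more, 10475 in all, were fitted with limma 3.58.1 (R 4.3.3, variance trend, two-sided) with Benjamini-Hochberg adjustment over all of them. Single transcripts and the ratio of each transcript to the rest of its gene were fitted in the same way. Exact permutation tests ran over libraries. On simulated data with 10475 genes, the gene fit recovered 80% of 2-fold and 97% of 4-fold changes, with 11 of 188 calls false. Changed genes were drawn only among genes well expressed in NC, and noise was independent and normal. Recovery at levels as low as those of SSH1 and LIMK2 in NC was thus not tested. The ratio fit, simulated on 14967 ratios, recovered 6% of ratios changed by 2 and 68% of those changed by 4 on the log2 scale.

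Members and lists were chosen with earlier results of these data known. Named genes are the 9 members, in each list every gene past the threshold and, where fewer than 3 passed, those with the next smallest adjusted p up to 3, the 3 profiles most like FLNA and LIMK1, and ALKBH3. A further list and 1 gene are not reported here. The ratio fit and the FLNA groupings were added after the data were seen. Alternatives were other pseudocounts, filters, scalings, a correction for length and GC content, the most abundant transcript, sums without transcripts under 1000 nucleotides, no variance trend, a replicate block and each library left out. Python 3.11.15, pandas 2.3.3, numpy 2.4.6 and matplotlib 3.10.9 were used. Promoter windows are from RefSeq, matched by symbol for all 9 genes.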

Additional observations from a re-analysis of the deposited data

How the results depend on the processing

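The log2 differences of FLNA and LIMK1 were negative under all 17 alternatives each, from -3.04 to -1.12 for FLNA and from -2.08 to -1.04 for LIMK1, and FLNA stayed past the threshold under 7 and LIMK1 under 9. The count of members past the threshold, 2, was 1 with a pseudocount of 0.1 FPKM, quantile normalization or the length and GC correction (FLNA lost, adjusted p = 0.0507, 0.0601 and 0.0617), 1 when the leading transcript alone stood for each gene (LIMK1 lost, 0.103), 0 with no variance trend (0.0639 for FLNA and 0.0514 for LIMK1) and 0 to 1 without single libraries. The cause was not tested. FLNA had -1.46 (adjusted p = 0.00699) without transcripts under 1000 nucleotides, an alternative chosen after seeing the data, and -3.04 when FLNA-203 alone stood for the gene. Over all genes, 105 passed with the leading transcript in place of the gene sum, where 184 had passed, and 48 to 110 without single libraries. In the actin lists 6 genes passed after the length and GC correction in place of 3, and 2 to 4 without single libraries. Fold changes followed transcript length over 10475 genes (Spearman rho = 0.35) and GC content (rho = -0.308), and genes are not independent. The count of members whose dominant share did not overlap was 2 when transcripts with a mean under 0.5 FPKM were left out. It was 2 to 3 without single libraries, where groups separate more easily because fewer libraries are left.

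Deviations of same-numbered libraries from their group means correlated at -0.088, 0.075 and -0.012, and those of other-numbered pairs at -0.141 to 0.142. Such values cannot tell whether libraries of the same number were prepared together, and no label says so. With a replicate block 20 genes passed, 1 of the lists (ELK3 kept at an adjusted p of 0.0374, EGR1 at 0.0706 and ARPC1A at 0.207 not), and 1 of the 9 members (LIMK1 lost, adjusted p = 0.126), and 2 members had dominant shares differing in the same direction in all 3 numbers. The adjusted p of FLNA-203 in the ratio fit was 0.702 with the block.

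Depth is unknown, and isoform levels are less certain than gene sums: pairs of libraries correlated at 0.939 to 0.970 over genes but at 0.821 to 0.850 over single transcripts.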
